A study of Mus musculus with 10 samples.

Results

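The *Dscam* locus lies near the distal end of mouse chromosome 16, and the genes around it pass to the offspring together with the mutant allele. The genes described here are the protein-coding genes that start at or beyond 77 Mb on that chromosome in the GENCODE M21 annotation of GRCm38. *Dscam* and 12 other genes were not members of the set by the rule that defined it (*Pcp4*, *Grik1*, *Olig1*, *Olig2*, *Kcnj6*, *Synj1*, *Tiam1*, *Cldn14*, *Mrpl39*, *Mrps6*, *Atp5j* and *Atp5o*). The annotation gives 131 members, and 127 of them are among the 53447 genes with a value in each library. The rule used position, gene type and these 13 names, and set no threshold on a measured value.

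Cerebella were taken at P21 from 5 Control mice (replicates 1 to 5) and 5 homozygous *Dscam del17/del17* mice (labelled DscamKO 1 to 5), all of strain BALB/c, and total RNA of each mouse was sequenced as 1 library. Their allele arose spontaneously as a small deletion that removes the function of *Dscam*, and it is present in all cells of the body, so no cell type was targeted. The allele came from the Jackson Laboratory and was bred to BALB/cCrSlc mice, and the number of generations of that breeding is not given in the sources used here. The paper gives the controls as wild type, and its methods state that controls were littermates and that mice of both sexes were used. The sex of the mice is not in the labels. Whether a difference in a linked gene comes with the loss of DSCAM or with other sequence carried on the same stretch of chromosome cannot be told apart in these 2 genotypes.

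When an allele is moved into another strain, the chromosome on both sides of it stays behind longest, because a crossover close to the allele is rare. Genes on that flanking stretch can then differ in sequence between mutants and controls. The distal part of mouse chromosome 16 is orthologous to much of human chromosome 21, and among its genes are those of the amyloid precursor protein, superoxide dismutase 1, the kinase DYRK1A, the calcineurin regulator RCAN1 and the receptors for interferons. It also carries a long cluster of genes for keratin-associated proteins, which are made in the hair shaft.

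Values are TPM, the share of each gene among the transcripts of a library, which the authors scaled to library size and transcript length, so levels can be compared between genes. The listed TPM did not sum to an equal total in each library. The total was lowest in Control 5, next lowest in Control 3 and highest in Control 1. The reported fit used the values without rescaling. Since TPM values do not retain read numbers, sequencing depth is unknown, and errors are given as the spread between mice. From 15623 (Control 5) to 17763 genes (Control 1) reached 0.5 TPM in a library. Control 5 stood apart from the other libraries, with 15210 TPM of mitochondrially encoded mRNA against 23120 to 44970 TPM elsewhere. *Dscam* itself had 7.72 ± 1.15 TPM in the 5 Control libraries and 4.37 ± 0.979 TPM in the 5 mutant libraries (mean ± SD), with no overlap between the libraries. Purkinje cell markers summed to 2860 to 3590 TPM and granule cell markers to 2240 to 2860 TPM in the 10 libraries, so the defining cells of the cerebellum were present. In whole tissue, fewer cells of a type and less RNA per cell cannot be told apart.

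The linked genes fell into a group with a measurable level and a group near 0. Of the 127 members, 67 reached 0.5 TPM in at least 5 libraries and could be tested. The other 60 did not, and 41 of these were at 0 in every library. The highest value of any of the 60 in any library was 1.44 TPM, of *Map3k7cl*, which was picked out after its values were seen. The 39 members between *Bach1* and *Sod1* were all in the group near 0. This stretch holds the keratin-associated protein genes, of which 24 are members, 22 were at 0 in every library, and none went above 1.13 TPM.

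Promoter sequences of RefSeq (GRCm38.p6, 250 bases before to 50 bases after the start) matched 55 of the 67 tested and 48 of the 60 untested members. The following 4 are shown for the member that was lower in every mutant mouse (*Cbr3*), for the member with the lowest p among those that were higher (*Cryzl1*), for the most abundant member with a TATA box (*Sod1*) and for a hair gene near 0 (*Krtap11-1*), the last chosen after its values were seen. They are written 5′ to 3′ on the strand of the gene. Capitals mark each CG pair and each match to TATAAA or to CCGGAAG, the core bound by factors of the ETS family, on either strand.
*Cbr3* (chr16:93682969-93683268, plus strand): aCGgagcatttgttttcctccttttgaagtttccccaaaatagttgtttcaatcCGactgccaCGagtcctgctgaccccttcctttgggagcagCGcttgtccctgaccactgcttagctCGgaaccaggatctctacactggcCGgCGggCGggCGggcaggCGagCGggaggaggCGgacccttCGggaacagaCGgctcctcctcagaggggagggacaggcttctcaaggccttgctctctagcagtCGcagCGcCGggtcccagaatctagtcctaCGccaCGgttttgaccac
*Cryzl1* (chr16:91728753-91729052, minus strand): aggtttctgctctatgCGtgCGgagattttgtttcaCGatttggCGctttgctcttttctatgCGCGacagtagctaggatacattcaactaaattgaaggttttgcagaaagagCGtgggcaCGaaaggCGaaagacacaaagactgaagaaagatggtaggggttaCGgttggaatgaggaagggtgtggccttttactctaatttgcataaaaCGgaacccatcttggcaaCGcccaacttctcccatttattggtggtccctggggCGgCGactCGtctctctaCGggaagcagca
*Sod1* (chr16:90220512-90220811, plus strand): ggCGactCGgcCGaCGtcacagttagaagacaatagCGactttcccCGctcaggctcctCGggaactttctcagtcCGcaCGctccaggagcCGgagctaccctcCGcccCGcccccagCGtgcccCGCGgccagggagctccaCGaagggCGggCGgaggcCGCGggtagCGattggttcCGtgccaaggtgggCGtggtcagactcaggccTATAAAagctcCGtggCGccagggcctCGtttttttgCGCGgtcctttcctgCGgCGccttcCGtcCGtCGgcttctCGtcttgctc
*Krtap11-1* (chr16:89571134-89571433, minus strand): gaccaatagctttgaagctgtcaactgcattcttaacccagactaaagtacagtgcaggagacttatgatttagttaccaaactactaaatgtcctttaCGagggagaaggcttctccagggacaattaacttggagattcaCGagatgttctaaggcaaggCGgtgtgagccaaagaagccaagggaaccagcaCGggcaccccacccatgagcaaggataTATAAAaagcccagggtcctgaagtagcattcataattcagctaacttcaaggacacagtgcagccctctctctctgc

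The *Cbr3* window has 19 CG pairs and the *Cryzl1* window 16, and neither holds TATAAA or CCGGAAG. The RefSeq start of *Cryzl1* lies 173 bases from the GENCODE start, so its window is not centred on the start used for distances. The *Sod1* window has 34 CG pairs and TATAAA at base -37, counted from the start site, and the *Krtap11-1* window has 4 CG pairs and TATAAA at base -28. Tested and untested members differed in the same way, but most untested members with a promoter lie in the hair-gene stretch between *Bach1* and *Sod1*. The 23 promoters of *Krtap* members had a median of 3 CG pairs. Tested members had a median of 29 CG pairs (range 7 to 54) and untested members a median of 2.5 (range 0 to 30), beside a median of 7 over 27025 genes of any level. At least 15 CG pairs were present in 46 of the 55 tested and in 3 of the 48 untested members.

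TATAAA on either strand was found in 14.2% of all 27025 promoters. It was found in 2 of the 55 tested promoters (3.64%), those of *Sod1* and *Adamts1*, and in 30 of the 48 untested ones (62.5%). These 30 lie in the hair-gene stretch between *Bach1* and *Sod1*, except for *Kcnj15* and *Lca5l*, named after the matches were seen. CCGGAAG was found in 14 tested promoters (25.5%) and in 1 untested promoter (2.08%), against 9.12% of all. Members with this ETS core include *Gart*, *Cct8*, *Ifnar1*, *Prdm15* and, named after the matches were seen, *Gabpa*, which itself encodes an ETS factor. CCAAT was found in 32.7% of the tested and 27.1% of the untested promoters, against 37.9% of all. The antioxidant response core TGACNNNGC was found in 20% of the tested and 4.17% of the untested promoters, against 12.5% of all, and *App* and *Sod1* were among the former. The 27025 promoters were not filtered by level and are the first listed for each gene, whereas those of members were the nearest to the GENCODE start. No share among other expressed genes was computed, so differences from all promoters cannot be read as particular to the linked genes. These matches describe the letters in the windows and not sites of binding.

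**Figure D1:**
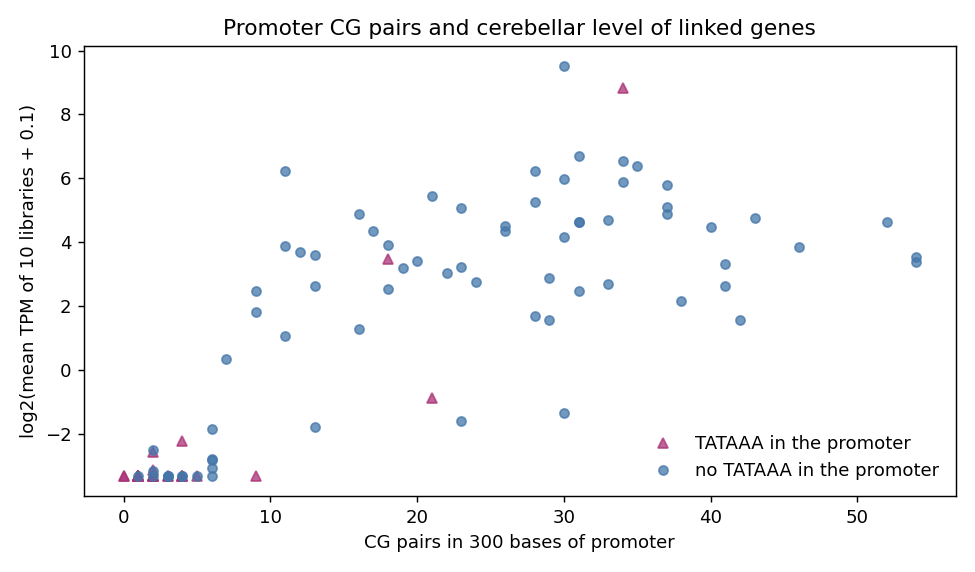
Level of the linked genes in cerebellum against CG pairs in their RefSeq promoters, 1 point a gene (55 tested and 48 untested members). The horizontal axis counts CG pairs in 300 bases, the vertical axis is log2 of the mean TPM of all 10 libraries after adding 0.1, and triangles mark promoters with TATAAA. Most genes with few CG pairs lie at the bottom, and the triangle at the upper right is *Sod1*.

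The genotypes were compared to ask whether genes linked to *Dscam* differed with the mutant allele. The comparison used log2(TPM + 0.1) and limma, with Benjamini-Hochberg adjustment of p over the 17168 genes with a sufficient level and a threshold of 0.05. Fold changes are *Dscam del17/del17* minus Control on that log2 scale, which understates the change of genes with a low level. No member passed the threshold, as no gene did in this fit (0% of 17168), and the adjusted p of the members ran from 0.779 to 0.995 (limma). At an unadjusted p under 0.05 there were 2 members (2.99%), beside 953 of all genes (5.55%). Of these, 1 was higher in the mutants (*Cryzl1*), beside 2.29% of all genes, and 1 was lower (*Cbr3*), beside 3.26% of all genes. *Cbr3* was also the only member whose genotypes did not overlap, 1.49% of the members beside 1.22% of all genes, or 0.798% of all genes when only those lower in the mutants are counted. These shares are near to or below those of the whole table.

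Most members differed little between the genotypes. The log2 fold change was under 0.5 in size in 56 of the 67 tested members (83.6%, against 78% of all genes tested) and under 0.25 in 42. The median size was 0.21 in the members and 0.23 over all genes. The 95% interval stayed within -1 and 1 for 47 members and within -0.5 and 0.5 for 13, so for 20 members a difference of 1 log2 unit or more is within the interval. The median half-width of the interval was 0.53 log2 units, against 0.62 over all genes. Of the 38 members that averaged 10 TPM or more, 35 differed by under 0.5 log2 units.

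**Figure D2:**
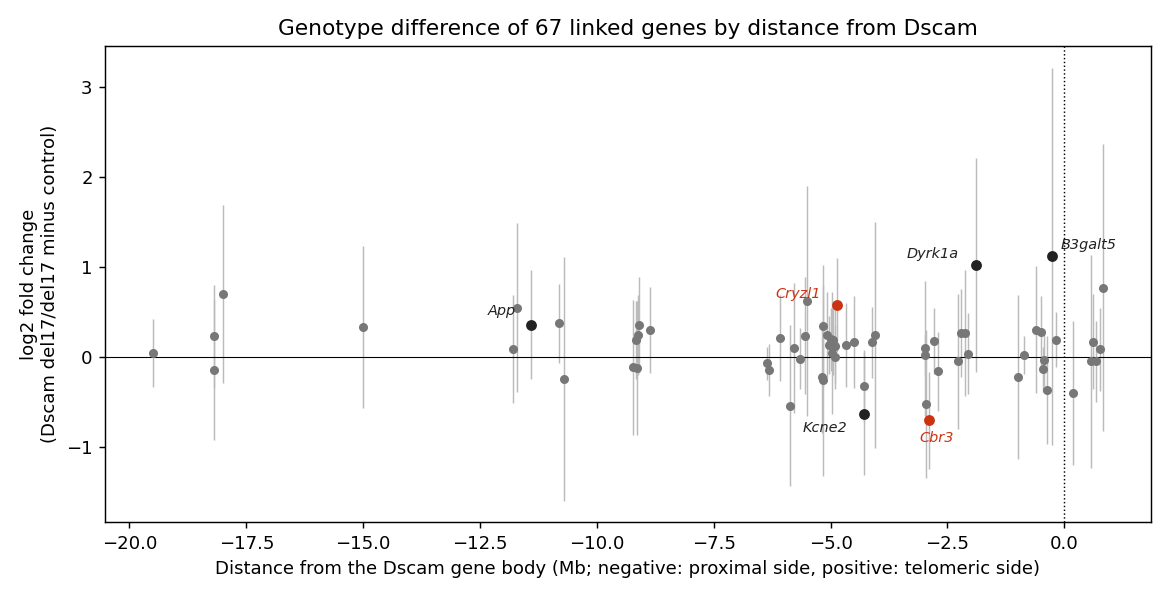
Log2 fold change (*Dscam del17/del17* minus Control, n = 5 mice each) of the 67 tested linked genes against distance from the *Dscam* gene body in Mb, 1 point a gene, with the 95% interval of limma as a bar. Red marks the 2 genes with an unadjusted p under 0.05, *Cbr3* at -0.70 and *Cryzl1* at 0.58, and the other 65 intervals cross 0.

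*Cbr3* was lower in all 5 mutant mice than in any control. It encodes a carbonyl reductase, an enzyme that reduces ketones and quinones with NADPH, and lies on the plus strand at chr16:93683215-93690990, 2.90 Mb before *Dscam*. Its level was 9.18, 10.2, 15.4, 11.9 and 8.997 TPM in Control 1 to 5 and 4.28, 5.72, 8.71, 7.13 and 8.59 TPM in DscamKO 1 to 5. The highest mutant library lay just under the lowest control library. The means were 11.1 ± 2.66 TPM and 6.88 ± 1.90 TPM (SD, n = 5 each), a log2 fold change of -0.70 (standard error 0.25, 95% interval -1.24 to -0.16). The unadjusted p was 0.0152 and the adjusted p 0.779 (limma), and the exact two-sided permutation test gave p = 0.00794, the smallest that 5 against 5 mice allow. Groups without overlap always give this exact p, which is not adjusted for the 67 members, so it adds nothing to the separation itself. Leaving out any 1 mouse kept the log2 fold change between -0.80 and -0.55. The gap between the groups was narrow, and they overlapped after quantile normalization (-0.78) and after the listed TPM were rescaled to an equal sum (-0.72).

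The neighbouring carbonyl reductase gene *Cbr1* had nearly the same level in both genotypes. It was measured at 74.2 ± 6.46 TPM in Control and 75.5 ± 7.30 TPM in the mutants (SD, n = 5 each), a log2 fold change of 0.02 with a 95% interval of -0.20 to 0.24. Another gene of the cluster, the predicted gene *Gm5678*, was named after its values were seen. It had 3.81 ± 1.24 TPM in Control and 2.78 ± 1.23 TPM in the mutants, and its 95% interval of -1.34 to 0.31 includes 0. The longest coding transcripts of *Cbr1* and *Cbr3* are identical at 73.9% of aligned bases, those of *Gm5678* and *Cbr3* at 74.1% and those of *Cbr1* and *Gm5678* at 90.7%. None of the 3 pairs shares a run of 75 bases in any of its coding transcripts.

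*Cryzl1*, which encodes a quinone oxidoreductase-like protein, was the only member higher in the mutants at an unadjusted p under 0.05. It lies on the minus strand at chr16:91689322-91728975. The control mice held 35.6, 34.2, 16.1, 20.4 and 16.01 TPM in order of replicate, and the mutants 35.4, 35.4, 31.7, 40.2 and 30.2 TPM. Controls 3, 4 and 5 were below every mutant, whereas Controls 1 and 2 were within the range of the mutants. The means were 24.5 ± 9.71 TPM and 34.6 ± 3.87 TPM (SD, n = 5 each), which is a difference of 0.58 on the log2 scale (95% interval 0.06 to 1.10, standard error 0.24, unadjusted p = 0.032, adjusted p = 0.779 from limma). The exact two-sided permutation test gave p = 0.0952. Its difference fell to 0.45 without Control 5, to 0.24 without Controls 3 and 5, and to 0.19 when mitochondrial mRNA entered the fit as a covariate. Of the exonic bases of *Cryzl1*, 9.8% are shared with *Gm10785* on the opposite strand, and the strand setting of the counting is not given in the sources used here.

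*Cryzl1* starts 306 bases from the start of *Itsn1* on the other strand. *Itsn1*, which encodes the endocytic scaffold intersectin, had 32.5 ± 9.21 TPM in Control and 34.9 ± 6.82 TPM in the mutants (SD, n = 5 each). Its log2 fold change of 0.13 (95% interval -0.34 to 0.60) had the same sign as that of *Cryzl1*, but it was 0.02 without Control 5 or without Control 3, -0.17 without both and -0.18 with the mitochondrial covariate. In the second pair of members with starts within 1000 bases of each other, *Gart* and *Son* start 554 bases apart. *Gart*, an enzyme of purine synthesis, had a log2 fold change of 0.19 (95% interval -0.20 to 0.58), which was 0.04 without Control 5, and *Son*, a splicing cofactor, one of -0.004 (95% interval -0.36 to 0.35).

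The redox and small-molecule enzymes were 7 in number and all were tested. They include both members with an unadjusted p under 0.05, which are 28.6% of this short list, beside 5.55% of all genes. The list was drawn up with earlier results of these data known, and the share was not tested. Of the other 5, 3 lay above 0 and 2 below 0 in log2 fold change. *Sod1*, the cytosolic superoxide dismutase, was the second most abundant member. Its level ran from 395 to 511 TPM (median 478) in Control and from 432 to 455 TPM (median 442) in the mutants, and the mutants lay within the control range. The log2 fold change was -0.07 with a 95% interval of -0.25 to 0.11. *B3galt5*, a galactosyltransferase, varied most from mouse to mouse, with 16.4, 16.5, 13.4, 1.39 and 0.882 TPM in Control 1 to 5 and 22.5, 1.74, 15.1, 19.8 and 20.7 TPM in DscamKO 1 to 5. Controls 4 and 5 and DscamKO 2 were far below the other 7 libraries, which overlapped between the genotypes. Its log2 fold change of 1.12 was the highest among the members, with a 95% interval of -0.97 to 3.21, and it was 0.49 without Control 5 and 1.80 without DscamKO 2.

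**Figure D3:**
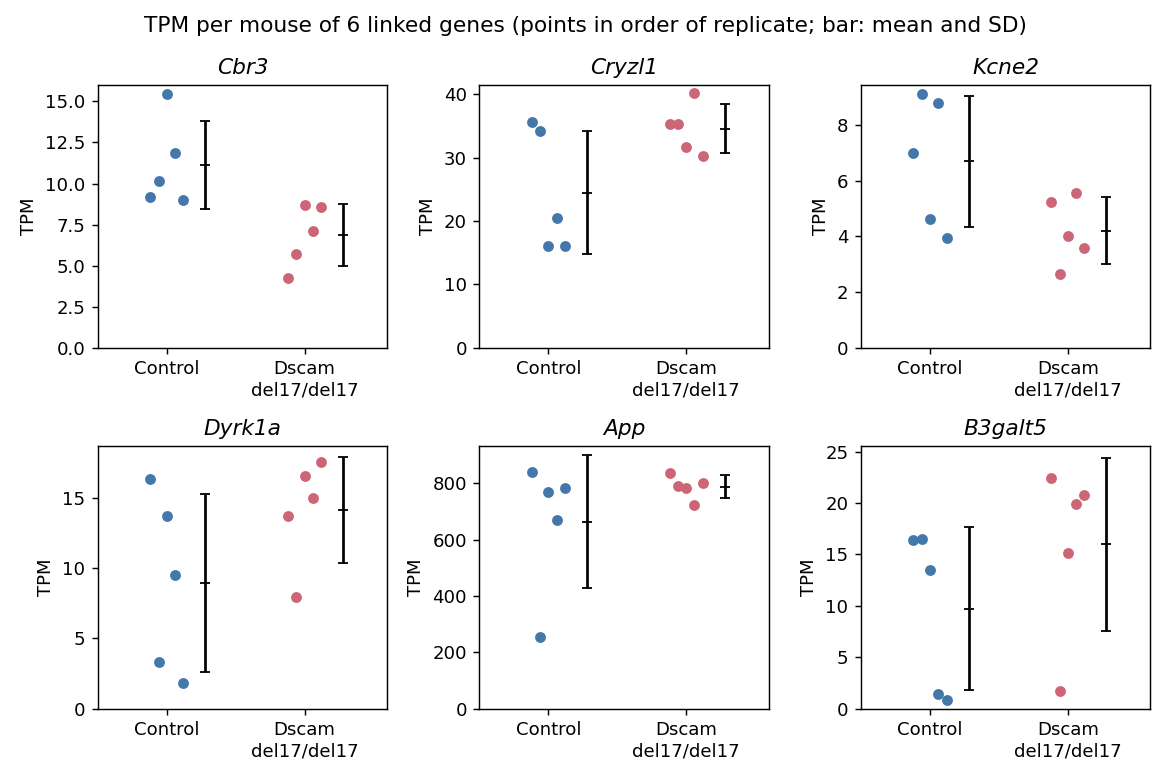
TPM in each mouse for 6 linked genes, with 5 Control mice (blue) and 5 *Dscam del17/del17* mice (red) in each panel, points in order of replicate, and the mean and SD as a bar. The genotypes separate for *Cbr3* and overlap for the other 5, and a few low libraries set the spread of *Dyrk1a*, *App* and *B3galt5*.

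Among the 5 tested genes of kinases, calcineurin regulation and endocytosis, 4 lay above 0 and 1 below 0. None had an unadjusted p under 0.05 (limma), beside 5.55% of all genes. *Dyrk1a*, a kinase whose gene dose matters for brain growth, was at 16.3, 3.35, 13.7, 9.50 and 1.83 TPM in Control 1 to 5 and at 13.7, 7.97, 16.5, 14.99 and 17.6 TPM in DscamKO 1 to 5. Controls 2 and 5 lay below all other libraries. The log2 fold change was 1.02 (95% interval -0.17 to 2.21, adjusted p = 0.779 from limma), 0.57 without Control 5 and 1.34 without Control 1. *Rcan1*, an inhibitor of the phosphatase calcineurin, had 24.7 ± 5.97 TPM and 27.1 ± 2.52 TPM (SD, n = 5 each) and a log2 fold change of 0.16 (95% interval -0.23 to 0.56), which was 0.02 without Control 5. *Ripk4*, a kinase of the epidermis, was near the limit of the test in both genotypes, at 0.624 ± 0.247 TPM and 0.644 ± 0.330 TPM.

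*App*, the amyloid precursor, was the most abundant member at a mean of 726 TPM over all libraries. It was at 842, 254, 770, 671 and 784 TPM in Control 1 to 5 and at 838, 792, 785, 724 and 803 TPM in DscamKO 1 to 5. A single library, Control 2, lay far below the others, and the rest overlapped. Its log2 fold change was 0.36 (95% interval -0.24 to 0.96), 0.04 without Control 2 and 0.59 without Controls 3 and 5. *Bace2*, a protease related to the beta-secretase of *App*, was at 3.12 ± 0.870 TPM in Control and 2.44 ± 1.26 TPM in the mutants (SD, n = 5 each), with a log2 fold change of -0.40 (95% interval -1.20 to 0.40), which was -0.66 without DscamKO 5. DscamKO 5, at 4.67 TPM, was above every control, and the other 4 mutants were between 1.56 and 2.02 TPM.

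All 4 cytokine receptor genes were tested, and their log2 fold changes ran from -0.26 to 0.24, 2 above 0 and 2 below. *Ifnar1*, a chain of the type I interferon receptor, had 21.1 ± 5.73 TPM in Control and 24.5 ± 4.82 TPM in the mutants (SD, n = 5 each), a log2 fold change of 0.24 with a 95% interval of -0.24 to 0.72. *Ifngr2*, a chain of the interferon-gamma receptor, had 23.8 ± 4.195 TPM and 25.9 ± 2.04 TPM (log2 fold change 0.14, 95% interval -0.18 to 0.46). Without Control 5 these fell to 0.06 for *Ifnar1* and 0.04 for *Ifngr2*, and without Controls 3 and 5 they were -0.03 and -0.05. The predicted gene *Gm21970* shares 100% of its exonic bases with the receptor genes *Ifnar2* and *Il10rb*, so the values of these 3, named after they were seen, may hold each other's reads. *Mx1*, an interferon-induced GTPase, stayed at or under 0.303 TPM in every library and was not tested. Interferon response genes outside the set summed to 19.6 to 35.2 TPM in Control and 17.0 to 39.2 TPM in the mutants.

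The genes of transcription and chromatin numbered 17, of which 13 were tested, with 8 log2 fold changes above 0 and 5 below and a median of 0.08. *Ets2*, a transcription factor of the ETS family, had 62.3 ± 6.002 TPM in Control and 63.2 ± 3.34 TPM in the mutants (SD, n = 5 each), with a narrow 95% interval of -0.19 to 0.24 around a log2 fold change of 0.02. *Paxbp1*, which binds PAX factors, had 56.6 ± 24.8 TPM and 61.0 ± 7.45 TPM, and Control 5 was its lowest library at 23.1 TPM. Its log2 fold change was 0.24 (95% interval -0.41 to 0.89) and -0.05 without Control 5. *Brwd1*, a bromodomain protein, was at 17.1 to 35.0 TPM (median 21.4) in Control and at 24.9 to 30.1 TPM (median 26.2) in the mutants. All 5 mutants were above 4 of the 5 controls, with Control 4 as the highest library, and the log2 fold change was 0.28 (95% interval -0.12 to 0.68, adjusted p = 0.779 from limma). Without Control 4, the only control above the mutants, it was 0.44 and the genotypes did not overlap, beside 1.61% of all genes in that fit. The unadjusted p was then under 0.05, as for 4.38% of all genes, and the adjusted p was 0.843 (limma).

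Of the 5 genes of RNA processing, replication and nucleotide synthesis, all were tested, with 3 log2 fold changes above 0 and 2 below. *Son* was at 72.2 to 130 TPM (median 102) in Control and 88.0 to 130 TPM (median 102) in the mutants. *Scaf4*, which acts at transcript ends, had 28.5 ± 3.60 TPM and 25.9 ± 3.04 TPM (SD, n = 5 each), a log2 fold change of -0.14 with a 95% interval of -0.43 to 0.15. The list of protein folding, ubiquitin and sorting held 12 genes, all tested, with 10 log2 fold changes above 0, 2 below and a median of 0.18, which was 0.04 without Control 5.

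*Cct8*, a subunit of the chaperonin that folds actin and tubulin, was at 97.0, 89.7, 54.2, 62.8 and 35.3 TPM in Control 1 to 5 and at 90.2, 65.7, 80.0, 95.5 and 80.6 TPM in DscamKO 1 to 5. Controls 3, 4 and 5 were below every mutant. Its log2 fold change was 0.36 (95% interval -0.17 to 0.89), and 0.15 without Control 5. *Ttc3*, a ubiquitin ligase, ran from 34.4 to 147 TPM (median 94.7) in Control and from 77.4 to 111 TPM (median 98.8) in the mutants, with a log2 fold change of 0.27 (95% interval -0.44 to 0.97), -0.04 without Control 5 and -0.33 with the mitochondrial covariate. *Tmem50b*, a membrane protein of the secretory pathway, had 78.7 ± 19.5 TPM and 88.2 ± 7.92 TPM (SD, n = 5 each), a log2 fold change of 0.20 with a 95% interval of -0.16 to 0.55, which was 0.08 without Control 5 and -0.05 without Controls 3 and 5.

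Among adhesion, junction and matrix genes, 6 of 11 were tested, and 5 of these lay above 0 and 1 below 0. *Adamts1*, a secreted protease of the extracellular matrix, was at 10.3, 10.97, 8.37, 11.1 and 7.31 TPM in Control 1 to 5 and at 17.4, 10.4, 13.0, 11.1 and 10.8 TPM in DscamKO 1 to 5. Both ranges overlapped near 11 TPM, and the exact two-sided permutation test gave p = 0.0794. This gave a log2 fold change of 0.37 (95% interval -0.06 to 0.81), which was 0.19 without Controls 3 and 5. *Jam2*, a junctional adhesion molecule of the endothelium, had 18.7 ± 6.36 TPM and 18.8 ± 2.60 TPM (SD, n = 5 each), a log2 fold change of 0.09 with a 95% interval of -0.50 to 0.69, which turned to -0.19 without Control 5.

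Among channels, transporters and their accessory proteins, 3 of 6 were tested. *Kcne2*, an accessory subunit of potassium channels known from the choroid plexus, was at 6.996, 9.11, 4.62, 8.80 and 3.96 TPM in Control 1 to 5 and at 5.24, 2.67, 4.03, 5.54 and 3.58 TPM in DscamKO 1 to 5. Controls 1, 2 and 4 were above every mutant, whereas Controls 3 and 5 were within the mutant range. The log2 fold change was -0.63 (95% interval -1.31 to 0.06, adjusted p = 0.779 from limma, exact two-sided permutation p = 0.0873), -0.80 without Control 5 and -1.001 without Controls 3 and 5. *Clic6*, a chloride channel protein of secretory epithelia, was at 10.02, 9.77, 8.08, 9.97 and 0.944 TPM in Control 1 to 5 and between 4.95 and 9.62 TPM in the mutants. In log2 fold change it turned from 0.25 to -0.39 without Control 5. Choroid plexus markers summed to 1800 TPM in Control 5 and to 2580 to 3410 TPM in the other controls, and to 1930 to 3400 TPM in the mutants, with DscamKO 2 the lowest. The part of choroid plexus content in the values of *Kcne2* and *Clic6* was not tested.

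*Smim11* and *D16Ertd472e* were in no list of roles and were named for their small p. *Smim11*, a small membrane protein, was at 38.3 to 57.4 TPM (median 50.4) in Control and 26.6 to 49.2 TPM (median 36.7) in the mutants, with a log2 fold change of -0.32 (95% interval -0.72 to 0.08), which was -0.19 without DscamKO 2. *D16Ertd472e* was at 0.836 to 3.81 TPM (median 2.06) in Control and 1.37 to 4.59 TPM (median 3.87) in the mutants, with a log2 fold change of 0.70 (95% interval -0.28 to 1.69), which was 0.42 without Control 3. The adjusted p of both was 0.779 (limma), and the genotypes overlapped.

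The genes next to *Dscam* showed no common direction. Within 1 Mb of *Dscam*, 14 of 19 members were tested, 8 above 0 and 6 below 0 in log2 fold change. Of the 14, 0 had an unadjusted p under 0.05 (limma), beside 5.55% of all genes, and so few genes cannot show a lower share. On the side before *Dscam*, the 5 nearest tested members were *Igsf5*, *B3galt5*, *Sh3bgr*, *Wrb* and *Hmgn1*. *Igsf5*, a junctional protein of the immunoglobulin family 0.17 Mb from *Dscam*, had 47.1 ± 7.96 TPM in Control and 53.4 ± 5.47 TPM in the mutants (SD, n = 5 each), a log2 fold change of 0.19 with a 95% interval of -0.11 to 0.50, which was 0.08 without Control 5. *Sh3bgr*, named for its SH3-binding region, had a log2 fold change of -0.37 (95% interval -0.97 to 0.24), *Wrb*, a receptor for the insertion of tail-anchored proteins, one of -0.03 (95% interval -0.33 to 0.27), and *Hmgn1*, a nucleosome-binding protein, one of -0.14 (95% interval -0.39 to 0.11). Leaving out 1 mouse moved *Sh3bgr* between -0.53 and -0.18 and *Wrb* between -0.11 and 0.03.

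Beyond *Dscam*, toward the end of the chromosome, lie 9 members, of which 6 were tested, 3 above 0 and 3 below. *Bace2*, described above, is the nearest at 0.19 Mb, with a log2 fold change of -0.40, and *B230307C23Rik*, named after its values were seen, the farthest of the 6 at 0.83 Mb. The latter had the highest estimate on that side, 0.77, with a 95% interval of -0.82 to 2.36. *Prdm15*, a zinc-finger regulator, had a log2 fold change of 0.17 (95% interval -0.36 to 0.70), *Zbtb21*, another zinc-finger gene, one of 0.08 (95% interval -0.38 to 0.54), *C2cd2*, a lipid-binding C2 domain protein, one of -0.05 (95% interval -0.49 to 0.40), and *Ripk4* one of -0.05 (95% interval -1.23 to 1.14). Leaving out 1 mouse moved *Prdm15* between 0.04 and 0.30 and turned the sign of *Zbtb21* without Control 5 (-0.003), of *C2cd2* without Control 4 (0.03) and of *Ripk4* without DscamKO 1 (0.29).

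The size of the difference showed little relation to the distance from *Dscam*. Over the 67 tested genes, which share the same 10 libraries, Spearman's rho of distance with the size of the log2 fold change was 0.03 and with the signed log2 fold change 0.14, as a description. The median log2 fold change was 0.05 within 1 Mb, 0.03 from 1 to 3 Mb (12 tested, *Cbr3* among them), 0.13 from 3 to 6 Mb (22 tested, *Cryzl1* among them), 0.19 from 6 to 10 Mb (9 tested) and 0.28 over 10 Mb (10 tested). Without Control 5 these medians were 0.03, -0.09, 0.02, 0.03 and 0.12. The protein-coding genes of chromosome 16 that start below 77 Mb, 344 of them tested, had a median of 0.08 and 17 with an unadjusted p under 0.05 (4.94%).

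More of the linked genes lay above 0 than below, 43 against 24 (64.2%, beside 56.0% of all genes tested), with a median log2 fold change of 0.12 beside 0.05 over all genes. This split moved with the libraries, in both directions. Without Control 4, 50 members were above 0 and 17 below, with a median of 0.15 beside 0.08 over all genes. Without Control 1, 46 were above and 21 below, with a median of 0.19 beside 0.10. Control 5 was the lowest of the 10 libraries for 36 of the 67 members (53.7%, beside 40.9% of all genes), Control 3 for 8 and Control 1 for 0. The median log2 deviation of the members from their own means was -0.52 in Control 5 and -0.18 in Control 3, beside -0.35 and -0.08 over all genes, and 0.25 in Control 1, beside 0.22. Without Control 5, 37 members were above 0 and 30 below, with a median of 0.02 beside -0.04 over all genes. Without Controls 3 and 5, 18 were above and 49 below, with a median of -0.09 beside -0.09. When mitochondrial mRNA entered the fit as a covariate, 17 were above and 50 below, with a median of -0.10 beside -0.11. In each of the last 3 settings the members' median lay within 0.06 of that of all genes tested. It lay further above that of all genes than in those 3 settings without Control 1 or without Control 4, and also in the reported fit. Without DscamKO 2 the members' median was 0.145 beside 0.053 over all genes.

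**Figure D4:**
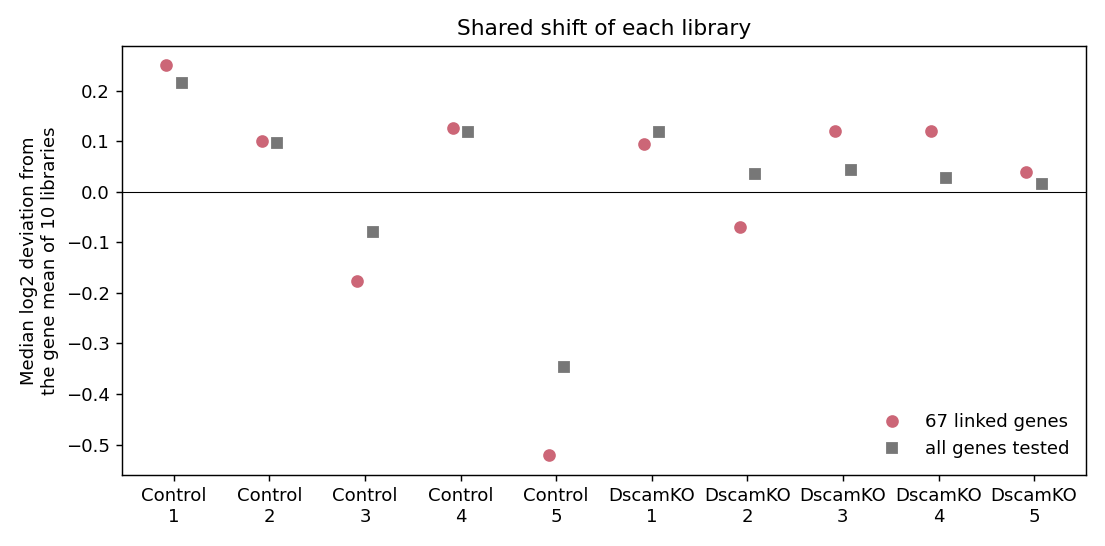
Median log2 deviation of each library from the mean of the 10 libraries, for the 67 tested linked genes (circles) and all 17168 genes tested (squares). Control 5 is lowest for both, at -0.52 and -0.35, and every other library lies within 0.25 of 0 for both.

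Of the other cells that a dissected cerebellum can hold, blood markers summed to 1070 to 1790 TPM in Control and 1540 to 2700 TPM in the mutants, with 5 of 5 genes above 0 and 4 at an unadjusted p under 0.05. Endothelium and meningeal fibroblast markers each had 2 genes above 0 and 3 below, microglia markers 3 above and 2 below, and choroid plexus markers 4 above and 1 below. In each of these lists 0 genes had an unadjusted p under 0.05. Genes listed for brainstem and midbrain summed to 7.41 to 20.7 TPM in Control and 13.2 to 32.7 TPM in the mutants. Of these, 5 of 5 tested genes were above 0 and 3 at an unadjusted p under 0.05. The highest means were those of *Slc6a5* (6.53 TPM in Control, 9.13 TPM in the mutants) and *Slc17a6* (3.45 and 8.87 TPM), whereas *Dbh* was at 0.194 and 1.11 TPM. Whether cells of the cerebellum itself expressed the genes of this list was not tested. Of the cells of the cerebellum itself, myelin markers had 5 of 5 genes above 0 and 2 at an unadjusted p under 0.05. Granule cell markers had 1 above 0 and 4 below, with 1 at that level. Bergmann glia markers had 3 above and 1 below, with 1 at that level, and Purkinje cell markers 5 above and 1 below, with 0. Over all genes the share at that level was 5.55%. The part of these cell types in the values of the linked genes was not tested.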

How the data were processed

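Per the labels and the study's methods, total RNA of 10 cerebella was made into directional libraries and sequenced on the Illumina NovaSeq platform. The authors trimmed reads with Trimmomatic, aligned them with HISAT2 to GRCm38 (GRCm38.p5 in the submitters' processing notes), and deposited TPM per Ensembl gene computed with StringTie. The annotation release and strand setting are not given in the sources used here. The read counts and DESeq2 results were not analysed here. Each genotype has 5 libraries from separate mice.

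Positions and gene types were taken from GENCODE M21, which lacked 105 of the 53447 identifiers. The other 4 annotated members were not analysed here. Genes with at least 0.5 TPM in at least 5 of 10 libraries were tested in R 4.3.3 with limma 3.58.1 on log2(TPM + 0.1), without covariates and with a trended prior variance. Adjustment of p-values followed Benjamini and Hochberg across every tested gene (threshold 0.05). An exact two-sided permutation test of mean TPM was added for single members. The test was tried on simulated data first. Transcripts were aligned with Biopython 1.88. Distances were measured to the *Dscam* gene body. Of the tested members, 7 share exonic bases with a gene on the same strand and 17 with one on the opposite strand, so TPM of overlapping genes may share reads.

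The members and the lists were chosen with earlier results of these data known. Named were members past the threshold or without overlap, the 10 with the smallest p, the 5 tested members nearest to *Dscam* on each side, the 2 most abundant of each list of roles and both genes of pairs whose starts lie within 1000 bases. Alternatives covered the added value, filter, scaling, variance trend, genes in the fit, covariates (*Xist* and mitochondrial mRNA levels), array weights, a block on replicate number, and left-out libraries.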

Additional observations from a re-analysis of the deposited data

Results flagged for a closer look

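In 9 of 134 groups of 5 libraries (each tested linked gene in each genotype), the highest or lowest library lay apart from the other 4 by Dixon's criterion, against 6.7 groups that chance alone would give at 1 in 20. Among the mutants, *Usp16* was at 32.89 TPM in DscamKO 4, with the next library at 21.52 TPM, and *Mis18a* was at 3.888 TPM in DscamKO 2, with the next at 2.165 TPM. *Gm21970*, which shares its exons with neighbouring receptor genes, was at 14.26 TPM in DscamKO 3, with the next at 9.825 TPM. *Bace2* was at 4.673 TPM in DscamKO 5, above every control, with the next mutant at 2.019 TPM, and *Dop1b* was lowest in the same mouse at 23.18 TPM, with the next at 26.35 TPM.

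Among the controls, *Clic6* was at 0.9439 TPM in Control 5, with the next library at 8.077 TPM. *Gm5678* was at 5.955 TPM in Control 1, with the next at 3.799 TPM. *Brwd1* was at 34.97 TPM and *B230307C23Rik* at 5.543 TPM in Control 4, with the next at 22.05 and 1.598 TPM. Control 5, the lowest library for 36 of the 67 members, stood apart by this criterion for 1 of them only, and *App* in Control 2 (254 TPM) did not meet it.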

How the results depend on the processing

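The fit was repeated under 23 alternatives. No member passed the adjusted threshold in any of them. The member median, 0.12 as reported, ran from -0.10 with the mitochondrial covariate to 0.19 without Control 1. It was also below 0 without Controls 3 and 5 (-0.09). After the listed TPM were rescaled to an equal sum, the member median was 0.105. The spread of the member median between single libraries of a genotype (SD 0.26) is wider than the reported median. It is not the error of a difference between 2 groups, so the moves were not judged by it. By library, the median deviation of the members ran from -0.52 to 0.25 in Control and from -0.07 to 0.12 in the mutants. The count of members with an unadjusted p under 0.05 was 2 as reported, beside 5.55% of all genes. It was 4 when mitochondrial mRNA entered the fit as a covariate (*Cbr3*, *Kcne2*, *Paxbp1* and *Ttc3*), beside 6.34% of all genes. With array weights it was 5, beside 7.29% of all genes. It ran from 1 to 4 when each library was left out in turn, and the share of all genes then ran from 4.1% to 9.52%. *Cbr3* was among the members counted in every alternative. *Cryzl1* was not in any fit without Control 3, 4 or 5 or without DscamKO 1, 2 or 4, nor with the mitochondrial covariate. The count of members whose genotypes did not overlap, 1 as reported, was 0 after quantile normalization, 0 after rescaling to an equal sum and 3 without Controls 3 and 5 (*Cbr3*, *Clic6* and *Kcne2*), and ran from 1 to 3 with each library left out, the highest without Control 2 (*Cbr3*, *Mis18a* and *Sod1*). A smaller group leaves fewer libraries to overlap, and the share over all genes then rose to 3.38% without Control 2 and 4.66% without Controls 3 and 5. Of the 35 named members, 19 changed the sign of the log2 fold change in at least 1 alternative, 13 of them without Controls 3 and 5 and 12 with the mitochondrial covariate, and 16 did not. With array weights, 34 members lay above 0 and 33 below. The cause was not tested.

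Both genotypes carry the replicate numbers 1 to 5. Deviations of same-numbered libraries correlated at 0.008 to 0.098, and not every library correlated best with its own number, so the numbers were not taken to pair the mice. With the replicate block, the count at an unadjusted p under 0.05 was again 2, the non-overlapping count 1 and the median 0.12, and 0 named members changed sign. The depth behind TPM is unknown, so the precision of members under 10 TPM, 29 of the 67, is known only from the spread between mice.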
